A study of Homo sapiens with 3 samples.

Results

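The peroxiredoxins PRDX1 to PRDX6, the superoxide dismutases SOD1 and SOD2, catalase (CAT) and the glutathione peroxidase GPX1 were taken from a table of RNA recovered with the helicase DDX49. These 10 genes were chosen by gene name, and all 10 were among the 13247 protein-coding genes of the table. The RNA came from HHL5 cells, a liver line whose cell type the labels give as embryonic liver and whose genotype they give as WT. All 3 libraries came from cells that carried Flag-tagged DDX49 and had received OA/PA, by its usual meaning the fatty acids oleate and palmitate, at a ratio of 2/1 and a concentration of 1.5 mM for 24 h. In RNA immunoprecipitation sequencing (RIP-seq) a protein is captured with an antibody, here after ultraviolet cross-linking, and the RNA held with it is counted. The libraries are replicates 1 to 3 of 1 group, and no input, mock pull-down or untreated sample was analysed here. A level therefore combines the amount of a transcript in the cells and its recovery, and the part of each was not tested.

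These enzymes remove superoxide and peroxides. Superoxide dismutases turn superoxide into hydrogen peroxide, which catalase splits in peroxisomes, glutathione peroxidases reduce with glutathione, and peroxiredoxins reduce through a reactive cysteine that most of them recharge with thioredoxin. In liver cells, oxidation of fatty acids in mitochondria and peroxisomes is a known source of both oxidants, so the enzymes of these compartments are often followed in models of fat loading.

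Replicates 1, 2 and 3 held 2023133, 1461858 and 1096586 counts. Levels are given in CPM, the count of a gene scaled to a library total of 1000000, so that 1 count equals 0.494, 0.684 and 0.912 CPM. DDX49 took 3.53%, 4.15% and 5.09% of the counts. Of 16 hepatocyte markers 6 were in the table and 2 had a mean of at least 1 CPM, CPS1 of the urea cycle (1726 ± 45.9 CPM, SD, n = 3) and the transcription factor CEBPA (1.72 ± 0.317). FGB and CYP2E1 had 0 counts in each library, which allows up to 1.48, 2.05 and 2.74 CPM (3 counts of the total). The summed level of the hepatocyte markers, nearly all of it CPS1, was 1676 to 1765 CPM. Of 4 biliary markers 3 were in the table, at a summed 5678 to 5960 CPM that was almost all KRT7 (5813 ± 143 CPM), with SOX9 at 4.43 ± 2.65 and KRT19 at 0 counts. The 4 stellate cell and fibroblast markers summed to 1125 to 1229 CPM, with VIM at 1104 ± 52.5, COL3A1 at 42.5 ± 9.59, PDGFRB at 31.1 ± 8.90 and COL1A1 at 0 counts. Of 5 endothelial and immune markers 2 were in the table, CDH5 at 3.07 ± 3.34 CPM and CD14 at 0 counts. Of 6 markers of red blood cells, which are rich in PRDX2 and catalase, SLC4A1 alone was in the table, with 0 counts.

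Transcripts of 9 of the 10 antioxidant enzymes were recovered with DDX49 at well over 1 CPM, and that of the mitochondrial peroxiredoxin PRDX3 had 1 count in all. The 9 had means of 15.3 to 515 CPM, at least 1 count in every library, and a mean of at least 10 CPM each. In the whole table, 81.6% of genes had a mean of at least 1 CPM, and 9 of 10 is close to that share. Of the 13247 genes, 7850 had a mean of at least 10 CPM and 10512 had at least 1 count in every library. The median over all 10 genes was 205 CPM, against 16.8 CPM over the 13247 genes. Together the 10 genes took 0.201%, 0.216% and 0.214% of the counts in replicates 1, 2 and 3, of which SOD1 alone took 23.4%, 24.1% and 25.9%.

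**Figure D1:**
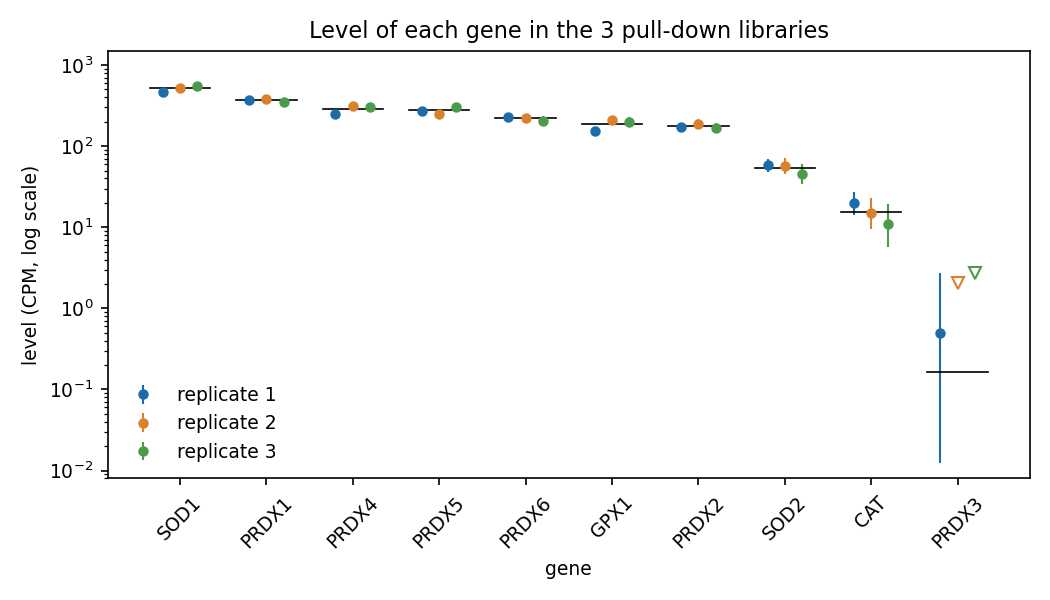
Level of each gene in CPM on a log axis, by gene in falling order of the mean. Points are the 3 libraries with exact 95% Poisson intervals for counting error, black lines are means over the libraries, and open triangles mark the limit of 3 counts where a library had 0. SOD1 is highest at 515 CPM, CAT lies at 15.3 CPM, and PRDX3 has a single count in replicate 1.

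PRDX1, the main cytosolic peroxiredoxin and a typical 2-Cys enzyme that works as a pair of subunits, was the highest of its family. The gene (ENSG00000117450, chromosome 1, 45511051 to 45522890, GRCh38, introns included here and below) had 759, 562 and 386 counts. These made 375, 384 and 352 CPM, a mean of 371 ± 16.7 (SD, n = 3 here and below). The libraries lay within 1.09-fold of each other, and their SD was close to the 16.1 CPM that counting alone gives. PRDX2 (ENSG00000167815, chromosome 19, 12796823 to 12801800), its close cytosolic relative, had 348, 277 and 183 counts, or 172, 189 and 167 CPM, with a mean of 176 ± 11.9. In each library PRDX1 had about the same multiple of the PRDX2 counts, at 2.18, 2.03 and 2.11.

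PRDX3, the typical 2-Cys peroxiredoxin of the mitochondrial matrix, was near 0 in every library. The gene (ENSG00000165672, chromosome 10, 119167720 to 119178812) had 1 count in replicate 1 and 0 in replicates 2 and 3. That made 0.494 CPM in replicate 1, while 0 counts allow up to 2.05 and 2.74 CPM in the others. Over the 4581577 counts of all libraries, the exact 95% Poisson interval ran from 0.00553 to 1.22 CPM. With PRDX3 itself included, 1042 genes (7.87%) of the table had a mean at or below its 0.165 CPM, of which 746 had 0 counts in all libraries. No protein-coding gene of RefSeq overlaps its span, and 4 numbered pseudogenes of it are listed there. Intervals and limits cover counting error only, since no molecular identifiers are recorded. Whether the low count of PRDX3 came from how reads were assigned, from recovery or from the amount in the cells was not tested.

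The mitochondrial partners of PRDX3 were recovered. TXN2, the thioredoxin that recharges it, had 112, 83 and 46 counts (51.4 ± 8.18 CPM), and TXNRD2, the reductase of that thioredoxin, had 42, 21 and 24 (19.0 ± 4.06 CPM). Both were thus counted in every library in which PRDX3 was at or near 0.

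PRDX4, the peroxiredoxin of the endoplasmic reticulum, which passes oxidising power to disulfide isomerases, had the second highest mean of the family. It was above PRDX5 in replicate 2 alone. The gene (ENSG00000123131, chromosome X, 23667493 to 23686397) had 508, 453 and 332 counts, or 251, 309.9 and 303 CPM, and a mean of 288 ± 32.1. Replicate 1 was the low library, and the highest was 1.23-fold above it. This spread exceeded counting error (adjusted p = 0.0168 in the chi-square test of counts against library totals, adjusted over 8633 genes).

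PRDX5, an atypical 2-Cys enzyme found in mitochondria, peroxisomes and cytosol, had a level close to that of PRDX4. The gene (ENSG00000126432, chromosome 11, 64318121 to 64321811) had 556, 365 and 332 counts, or 275, 249.7 and 303 CPM, with a mean of 276 ± 26.6. PRDX5 was above PRDX4 in replicate 1, below it in replicate 2, and had the same count in replicate 3. The PRDX5 libraries did not pass the test (adjusted p = 0.124).

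PRDX6, the 1-Cys member, which is recharged by glutathione and acts also on oxidised phospholipids, had 469, 326 and 226 counts. The gene (ENSG00000117592) lies on chromosome 1 at 173477335 to 173488815. Its levels were 232, 223 and 206 CPM, with a mean of 220.3 ± 13.1, and the libraries did not pass the test (adjusted p = 0.516).

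Within the family, PRDX1 took the largest share of the counts in each library, followed by PRDX4 and PRDX5. The 6 peroxiredoxins together had 1305, 1356 and 1330.5 CPM in replicates 1, 2 and 3, a mean of 1331 ± 25.5. PRDX1 took 28.7% of the family's 2641 counts in replicate 1 (95% Wilson interval 27.0 to 30.5), 28.3% of 1983 in replicate 2 (26.4 to 30.4) and 26.5% of 1459 in replicate 3 (24.3 to 28.8). PRDX4 took 19.2% (17.8 to 20.8), 22.8% (21.0 to 24.7) and 22.8% (20.7 to 24.98). PRDX5 took 21.1% (19.5 to 22.6), 18.4% (16.8 to 20.2) and 22.8% (20.7 to 24.98). The PRDX4 interval of replicate 1 and that of replicate 2 do not overlap, and neither do the PRDX5 intervals of replicates 2 and 3. These intervals are not adjusted for the number of comparisons, and such shares were not compared over all genes. In the adjusted chi-square test 19.6% of all genes differed between libraries, and PRDX5 was not among them. PRDX6 took 16.6% ± 1.14 and PRDX2 13.2% ± 0.714. PRDX3 took 0.0379% in replicate 1, and its 0 of 1983 and 0 of 1459 counts allow shares of up to 0.151% and 0.206% (3 counts of the total). Such shares do not depend on library totals, yet they do depend on transcript length.

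**Figure D2:**
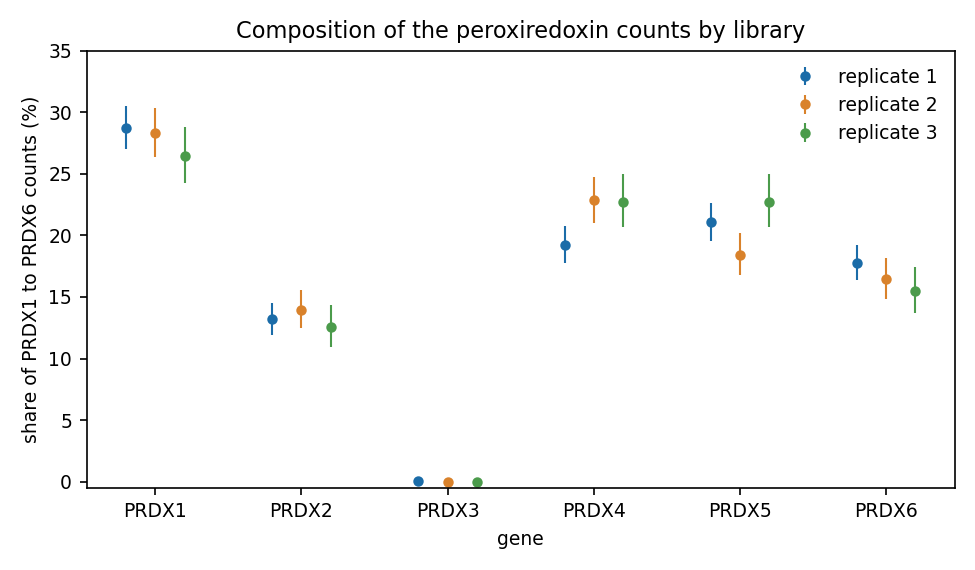
Share of the summed PRDX1 to PRDX6 counts (percent) taken by each gene, with 95% Wilson intervals, for the 3 libraries. PRDX1 lies between 26.5% and 28.7%, PRDX4 and PRDX5 change places between replicates 1 and 2, and PRDX3 lies at 0 or 0.0379%.

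SOD1, the copper and zinc superoxide dismutase of the cytosol, was the highest of the 10 genes. The gene (ENSG00000142168, chromosome 21, 31659693 to 31668931) had 950, 762 and 609 counts, or 469.6, 521 and 555 CPM, and a mean of 515 ± 43.2. Replicate 1 was lowest and replicate 3 highest, 1.18-fold apart, and the SD was 2.28 times that of counting alone. The libraries passed the test (adjusted p = 0.0258). The share of DDX49 was also lowest in replicate 1 and highest in replicate 3, and a link between it and SOD1 was not tested. With DDX49 left out of the library totals the adjusted p of SOD1 was 0.0130. SOD1 ranked 316th by mean level in the table, where 97.6% of genes were lower.

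SOD2, the manganese superoxide dismutase of mitochondria, had a far smaller share of the reads. The gene (ENSG00000112096, chromosome 6, 159669069 to 159762281) had 117, 84 and 50 counts, or 57.8, 57.5 and 45.6 CPM, and a mean of 53.6 ± 6.96. Replicate 3 was lowest, and the libraries did not pass the test (adjusted p = 0.498). SOD2 took 11.0% (95% Wilson interval 9.23 to 13.0), 9.93% (8.09 to 12.1) and 7.59% (5.80 to 9.86) of the counts of the pair in replicates 1, 2 and 3. The intervals of the 3 libraries overlap. The annotated span of SOD2 shares 29627 bases with WTAP, an adaptor of the RNA methylation complex, and 237 with the thiolase ACAT2. WTAP had 38.5 CPM and ACAT2 50.6 CPM. The sources used here do not say whether strand was used in counting, and the effect of these shared bases was not tested.

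CAT, the peroxisomal catalase, was the lowest of the 9 genes above 1 CPM. The gene (ENSG00000121691, chromosome 11, 34438934 to 34472060) had 40, 22 and 12 counts, or 19.8, 15.05 and 10.9 CPM, and a mean of 15.3 ± 4.42. Replicate 1 was highest and replicate 3 lowest, 1.81-fold apart. At this depth the difference could not be told from counting error (adjusted p = 0.319). CAT lay near the middle of the table, with 48.3% of genes lower.

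GPX1, the widespread selenium-dependent glutathione peroxidase, had the largest SD relative to counting error of the 10 genes. The gene (ENSG00000233276, chromosome 3, 49357176 to 49358353) had 315, 308 and 220 counts, or 156, 211 and 201 CPM, and a mean of 189 ± 29.3. Replicate 1 lay below the other libraries, with 1.35-fold between the lowest and the highest, and the SD was 2.55 times that of counting alone. The libraries passed the test (adjusted p = 0.00496).

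Of the 9 genes that could be tested, 3 (SOD1, PRDX4 and GPX1) had library differences beyond counting error, and replicate 1 was the lowest library for each. Over the 8633 genes tested (those whose counts summed to 30 or more), 19.6% were called. How many of those had replicate 1 lowest was not counted, so this direction does not set the 3 genes apart. Among the called genes of the lists below, GPX4 and CYBA also had replicate 1 lowest, and GLRX2, MTHFD1, SEPHS2 and EEFSEC did not. PRDX3 was not tested, since its summed count was 1. Leaving out a library lowered the share called in the whole table too. Without replicate 1, the deepest library, 6.77% of 7462 genes were called, and among the antioxidant enzymes the chi-square test called 0 of 9, with 1 gene at an unadjusted p below 0.05, and the likelihood ratio test also called 0, with 1 such gene. Without replicate 3, where 5.80% of 8176 genes were called, SOD1 was no longer called (adjusted p = 0.183), while PRDX4 (0.0283) and GPX1 (0.00871) were. Without replicate 2 all 3 were still called, with 16.6% of 7975 genes called. The libraries are replicates of 1 group, so this test compares libraries and no conditions. In terms of the coefficient of variation of CPM, the 9 genes ran from 4.51% for PRDX1 to 29.0% for CAT, against a median of 15.5% over the 7850 genes of at least 10 CPM. The sets were not matched by level, on which this coefficient depends, so they do not show the 9 genes to be steadier. Relative to counting alone, the SD of the 9 ran from 1.04 times for PRDX1 to 2.55 times for GPX1.

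**Figure D3:**
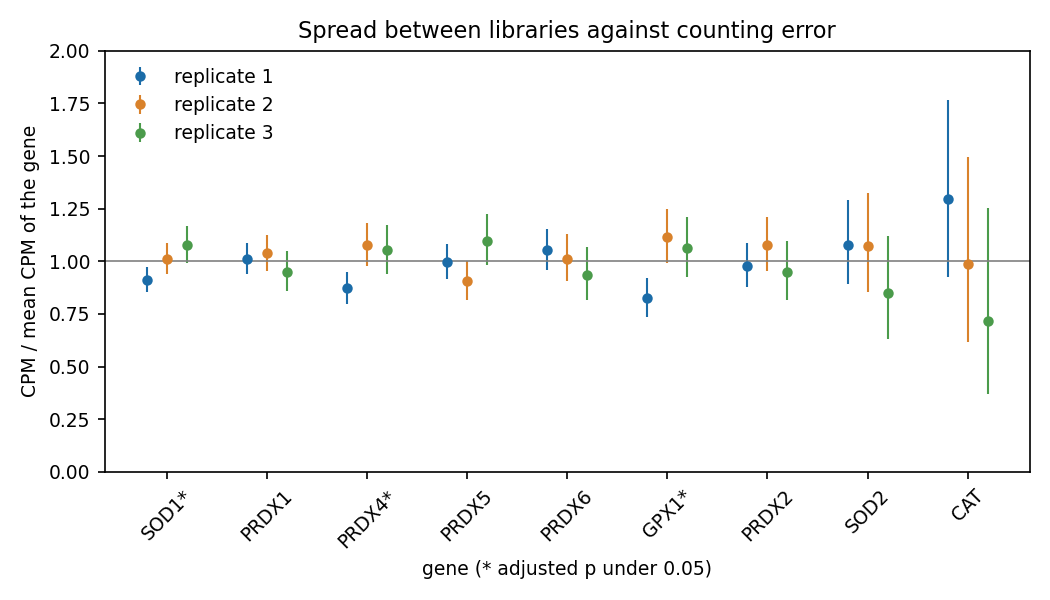
CPM of each library over the mean CPM of the gene, for the 9 genes tested, with exact 95% Poisson intervals for counting error. Asterisks mark the 3 genes with an adjusted p below 0.05, SOD1, PRDX4 and GPX1, whose replicate 1 point and interval lie below 1.

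Ordered by share of reads, the genes ran SOD1, PRDX1, PRDX4, PRDX5, PRDX6, GPX1, PRDX2, SOD2, CAT and PRDX3. Of the 9 pairs of neighbours in this order, 3 had ranges over the libraries that overlapped, PRDX4 with PRDX5, PRDX6 with GPX1, and GPX1 with PRDX2. PRDX6 was above GPX1 in all 3 libraries all the same, and GPX1 was above PRDX2 in 2. The ranges of the other 6 pairs were apart. No p is given for this order, because 0.25 is the smallest p that flipping signs over 3 libraries can reach. Long transcripts give more reads than short ones, and transcript lengths were not used here, so this is an order of reads and not of molecules. The 3 genes most like SOD1, by the root mean square difference of log2(CPM + 1) over the 3 libraries, were C19orf53 (0.013), SDF4 (0.049) and TOR1AIP2 (0.055). With 3 libraries this likeness is mainly one of level.

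Genes listed for the thioredoxin system and peroxiredoxin repair, with the inhibitor TXNIP and the sestrins among them, ranged from near the limit of detection to the levels of the peroxiredoxins. All 10 genes of the thioredoxin and repair list had a mean of at least 1 CPM, against 81.6% of all genes, with a median of 21.8 CPM. The sestrins SESN1 (4, 5 and 2 counts) and SESN3 (4, 1 and 1 counts) were the lowest, with means of 2.41 and 1.19 CPM that lie at or near the level of 3 counts. Their relative SESN2 was higher, with 38, 32 and 36 counts (24.5 ± 7.38 CPM). TXNRD1, the cytosolic thioredoxin reductase, had 658, 446 and 340 counts and was the highest (313 ± 10.5 CPM). TXNIP, which binds and inhibits thioredoxin, followed at 145 ± 18.8 CPM, and TXN, the cytosolic thioredoxin, at 76.1 ± 12.4 CPM. SRXN1, the sulfiredoxin that restores overoxidised 2-Cys peroxiredoxins, had 13, 13 and 4 counts (6.32 ± 2.62 CPM). Of the 7 genes of this list with enough counts, the chi-square test called 0 between libraries, with 2 at an unadjusted p below 0.05, and the likelihood ratio test called 0, with 1 such gene. Beside the 19.6% called over all genes, the count of called genes in so short a list, here and in the lists below, sets no list apart.

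Of the other glutathione peroxidases, GPX4 alone of 7 was in the table analysed here. GPX4, which reduces lipid peroxides in membranes, had 1068, 799 and 699 counts, or 528, 547 and 637 CPM, with a mean of 571 ± 58.6. Replicate 1 was its lowest library, as it was for GPX1, and replicate 3 its highest. GPX4 differed between libraries beyond counting error (adjusted p = 0.00532 in the chi-square test). Glutathione supply and reduction had all 8 genes above 1 CPM with a median of 21.1 CPM, led by the glutathione synthetase GSS (93.8 ± 13.3), the glutathione reductase GSR (69.9 ± 7.36) and the glutaredoxin GLRX3 (33.2 ± 10.7). In that list 1 of 8 genes tested, against 19.6% of all genes, differed between libraries, the mitochondrial glutaredoxin GLRX2, with 13, 26 and 3 counts.

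NADPH, the electron source of both systems, is made by enzymes whose 8 listed genes were all above 1 CPM, with a median of 91.1 CPM. The folate enzyme MTHFD1 had 271 ± 35.4 CPM, and PGD of the pentose phosphate pathway had 188 ± 13.4 CPM. Of the 7 tested, 1 differed between libraries, against 19.6% of all genes (MTHFD1, adjusted p = 0.0117). Of 17 listed sources of superoxide and hydrogen peroxide 8 were in the table and 4 were above 1 CPM, with a median of 1.53 CPM. CYBA, a subunit shared by several NADPH oxidases, had 85.4 ± 19.2 CPM, the peroxisomal oxidase ACOX3 had 6.27 ± 1.88, and the oxidases CYBB, NOX5 and DUOX2 had 0 counts in each library. CYBA was 1 of 2 tested and differed between libraries (adjusted p = 0.0258), where 19.6% of all genes did.

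Genes that equip these enzymes with metal or selenium, or import catalase into peroxisomes, lay close to the table's median. Of 13 listed 12 were in the table and 11 were above 1 CPM, with a median of 16.6 CPM against 16.8 CPM for all genes. SEPHS2, which makes the selenium donor for enzymes such as GPX1, had 59.8 ± 16.7 CPM, and the import receptor PEX5 and the import factor PEX10 had 36.9 ± 6.88 and 31.3 ± 7.04. CCS, the copper chaperone of SOD1, had 27, 18 and 9 counts (11.3 ± 2.72 CPM). Of the 9 tested, 2 differed between libraries, a share near the 19.6% of all genes, namely SEPHS2 (adjusted p = 0.0169) and the selenocysteine elongation factor EEFSEC (0.0307).

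**Figure D4:**
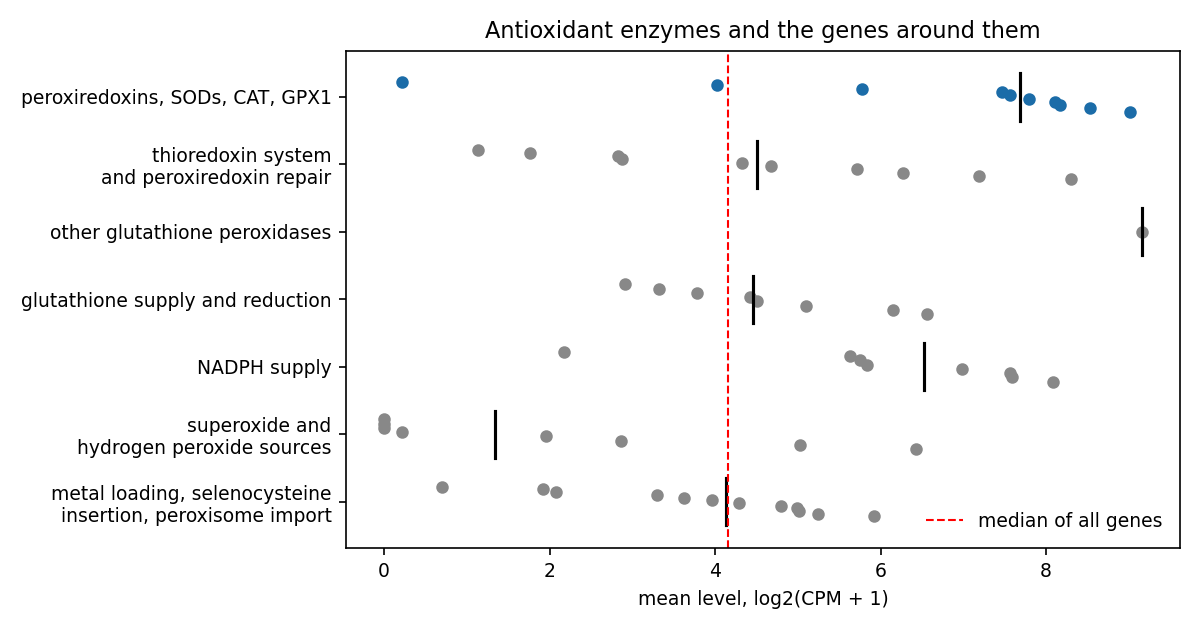
Mean level of each gene, log2(CPM + 1), in the 10 antioxidant enzymes (blue) and in the 6 lists around them (grey), with the list median as a black bar and the median of all genes, 16.8 CPM, as a dashed red line. All but 2 of the 10 enzymes lie to the right of that line, the exceptions being CAT at 15.3 CPM and PRDX3 at 0.165 CPM.

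For 8 of the 10 genes RefSeq lists numbered pseudogenes, between 1 and 4 each, the exceptions being PRDX6 and CAT. Protein-coding genes overlap the spans of PRDX1, PRDX5 and SOD2 and none of the other 7. PRDX1 shares 2332 bases with MMACHC (34, 12 and 15 counts) and PRDX5 shares 476 bases with TRMT112 (230, 154 and 72 counts). The sources used here do not say how reads that fit several places were counted, so the values of these genes are uncertain by an amount that was not tested.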

How the data were processed

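RNA pulled down with Flag-DDX49 was measured in 3 libraries of 1 group, taken from the sample labels. CASAVA 1.4 and build hg38 are named in the submitters' processing notes. No aligner, counting tool or strand setting was found (not given in the sources used here). Per the file headers, the values that the authors deposited and that were used are raw counts. A further 3 per-sample columns, normalised by the authors with edgeR per the file headers, were not used. The labels do not say that the replicates were separate cultures, so p-values measure only the spread between these samples, which may be technical.

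Counts were divided by the library total (CPM). Libraries were compared for all genes whose counts summed to 30 or more, by a chi-square test on each gene with expected counts in proportion to the totals and Benjamini-Hochberg adjustment at 0.05. The test was tried on simulated counts whose only random spread was counting error, without changes and with changes set in replicate 3 for some genes. That does not show how it behaves where the random spread between libraries is larger than counting error. Between-group models such as those of edgeR need a second group, so edgeR 4.0.16 and DESeq2 1.42.0 (R 4.3.3) gave only the library sizes used as alternatives. A level per coding length had been planned, but lengths were not used here. Gene identifiers of 12819 genes (96.8%) matched RefSeq (GRCh38.p14, the assembly of hg38), which gave positions and current symbols. The text names all 10 genes, of each further list the 3 highest and those at 0 counts, DDX49, and the 3 genes most like the highest of the 10; results for 2 genes taken by this rule are left out. TXN2, TXNRD2, SRXN1, SESN1, SESN2, SESN3, GLRX2, CCS, EEFSEC, ACOX3, SOX9 and the genes overlapping the 10 were named after their values were seen. The genes and lists were chosen with earlier results of these data known. Alternatives were other library sizes, count minimums and test statistics, and leaving out each replicate. The tests ran in Python 3.11.15 (scipy 1.17.1; numpy 2.4.6; pandas 2.3.3), and matplotlib 3.10.9 drew the plots.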

Additional observations from a re-analysis of the deposited data

How the results depend on the processing

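The 3 genes called among the antioxidant enzymes remained called with TMM library sizes, DESeq2 size factors, totals without DDX49, no filter, a minimum of 100 counts and the likelihood ratio statistic. Leaving out 1 replicate gave 0 to 3 called, with 0 without replicate 1, where the adjusted p was 0.517 for SOD1, 0.897 for PRDX4 and 0.801 for GPX1. Over all genes, the number called ran from 474 to 1322 with a replicate left out (505 without replicate 1 and 474 without replicate 3), against 1691; fewer libraries are then tested. The median level of the 10 genes moved past its spread between libraries with DDX49 left out of the totals (213.8 CPM against 205), as that raises every other gene. The cause of the other changes was not tested. The 9 genes above 1 CPM and the PRDX1 share (27.4% to 28.5% with a replicate left out) kept their values within these bounds. Per-length orders and shares were not run, as coding lengths were not used here. No paired analysis was possible because the series has 1 group. Depth limits CAT and PRDX3 most.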
